A study of Mus musculus with 5 samples.

Results

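Late spinous keratinocytes, the cells of the upper spinous layer of the epidermis, were selected on their counts of marker genes, as barcodes with high Krt1 and Krt10 that also carried Krt77, Krt78 or Sbsn. A member had at least 200 genes, at most 10% mitochondrial UMIs (unique molecular identifiers, which count captured RNA molecules), and per 10000 UMIs at least 100 of Krt1 plus Krt10, at least 10 of Krt77, Krt78 and Sbsn together, and under 5 of Krt79. The rule was met by 1703 of 26845 kept barcodes, out of 27317 deposited. Members numbered 523, 34 and 102 in wounded libraries 1, 2 and 3, 659 in all, against 617 and 427 in un-wounded libraries 1 and 2, 1044 in all. Earlier spinous keratinocytes, with which they were compared, met the same conditions but held under 10 of the 3 genes together, and numbered 221, 8 and 6 in the wounded libraries and 267 and 108 in the un-wounded ones. The condition on Krt79, a keratin of the upper hair follicle, set aside 19, 0 and 3 otherwise qualifying barcodes of the wounded libraries and 24 and 6 of the un-wounded ones.

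The samples were wounded (n = 3) and un-wounded (n = 2) libraries of C57BL/6 mouse skin, all made from suspensions of whole skin after a sort for live cells, with 10x Genomics 3′ v1 chemistry per the labels. Wounded skin came from mice that received a 6-mm punch wound at 7 weeks of age, and a 10-mm punch around the wound was taken 4 days later. It therefore held the wound together with a rim of surrounding skin, and the cells of wound edge and rim cannot be told apart in these libraries. The age of the un-wounded mice, and whether a library is 1 animal or a pool, are not given in the labels.

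Keratinocytes leave the basal layer, stop dividing, and as they move up exchange the basal keratins Krt5 and Krt14 for Krt1 and Krt10. In the upper spinous layer they add further keratins, among them Krt77 and Krt78, and secrete small proteins such as suprabasin (Sbsn) and keratinocyte differentiation-associated protein (Krtdap), before the granular layer makes loricrin and filaggrin and lays down barrier lipids. At the edge of a wound, differentiating keratinocytes are known to turn on stress keratins (Krt6a, Krt6b, Krt16, Krt17), small proline-rich proteins and antimicrobial S100 proteins.

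Krtdap and Sbsn, which mark the late cells, lie close together on mouse chromosome 7, at 7:30787896-30791097 and 7:30751471-30756134 on the plus strand of build mm10 (GRCm38), with Dmkn, which encodes another secreted epidermal protein, between them at 7:30763756-30781063. Sprr1a, whose level rose in wounded late cells, lies at 3:92483952-92485895 on the minus strand. The promoter sequences of these 3 genes, from RefSeq on GRCm38.p6, are shown because the levels of the genes show the stage marker pattern or the wound response described below. Promoter activity was not tested. Each holds 250 bases before and 20 bases after the annotated start, 5′ to 3′ on the gene's strand, from chr7:30787655-30787924 for Krtdap, chr7:30751221-30751490 for Sbsn and chr3:92485862-92486131 for Sprr1a. Capitals mark the AP-1 motif TGANTCA and the TATA box TATAAA, both searched on both strands.
Krtdap: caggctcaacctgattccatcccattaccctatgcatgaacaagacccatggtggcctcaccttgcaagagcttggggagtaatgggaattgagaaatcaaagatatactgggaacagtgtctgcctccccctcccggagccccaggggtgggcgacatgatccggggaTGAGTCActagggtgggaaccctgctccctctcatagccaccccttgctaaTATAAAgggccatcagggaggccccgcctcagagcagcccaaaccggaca
Sbsn: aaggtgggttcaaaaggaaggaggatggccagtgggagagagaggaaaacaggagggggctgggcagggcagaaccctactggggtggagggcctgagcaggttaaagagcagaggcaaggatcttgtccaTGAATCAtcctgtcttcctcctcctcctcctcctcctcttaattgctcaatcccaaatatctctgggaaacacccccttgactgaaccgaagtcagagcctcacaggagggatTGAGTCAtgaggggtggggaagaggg
Sprr1a: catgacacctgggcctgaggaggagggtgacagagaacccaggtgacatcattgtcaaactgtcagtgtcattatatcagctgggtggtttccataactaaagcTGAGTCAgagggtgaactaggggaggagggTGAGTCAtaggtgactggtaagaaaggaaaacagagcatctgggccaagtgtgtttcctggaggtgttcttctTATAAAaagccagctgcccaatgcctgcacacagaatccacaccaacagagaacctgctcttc
Among 32851 mouse promoter windows of this length, 7.23% held TGANTCA and 12.9% held TATAAA. The AP-1 motif began at -81 in Krtdap, at -119 and -6 in Sbsn, and at -146 and -116 in Sprr1a, counted from the gene's start. The TATA box began at -30 in Krtdap and -43 in Sprr1a, and these letters did not occur in the Sbsn window. The motif of the grainyhead-like factors (AACCNGTT, in 1.92% of windows), occurred in none of the 3 windows. A match is a description of the letters and not evidence of binding.

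The members' UMIs were summed per library and scaled to counts per 1000000 of that sum (CPM). The sums held 5058411, 376318 and 1517206 UMIs in the wounded libraries and 5126563 and 4976392 in the un-wounded ones, so that wounded library 2, with 34 cells, was the thinnest. Members had median depths of 9322, 10358 and 13991.5 UMIs in the wounded libraries and 8017 and 10989 in the un-wounded ones. Whole libraries held 33537809 to 59621412 UMIs in wounded and 33642571 and 41041406 in un-wounded skin, and pairs of libraries shared 26 to 63 barcode sequences. Markers of fibroblasts, myeloid cells, T cells, vessels and muscle together made up 29.7, 25.9 and 18.1 per 10000 member UMIs in the wounded libraries and 10.6 and 23.1 in the un-wounded ones. P-values measure the spread between libraries, which the labels do not say are separate animals, and intervals cover counting error only.

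Late spinous keratinocytes made up a smaller share of all kept barcodes in every wounded library than in either un-wounded one, an order that did not hold when cells of other lineages left the total. In wounded libraries 1, 2 and 3 their share of kept barcodes was 6.96% (95% Clopper-Pearson interval 6.39 to 7.56%), 0.744% (0.516 to 1.04%) and 2.47% (2.02 to 2.99%). In un-wounded libraries 1 and 2 the late cells were 11.7% (10.9 to 12.6%) and 7.95% (7.24 to 8.70%) of kept barcodes. The groups averaged 3.39 ± 3.21% (SD, n = 3) in wounded and 9.83 ± 2.67% (SD, n = 2) in un-wounded skin, a difference of -6.44 percentage points. With barcodes holding 50 or more markers of other lineages per 10000 left out of members and total, the shares were 15.0, 4.93 and 12.5% in wounded and 13.7 and 14.7% in un-wounded libraries, with wounded library 1 above both un-wounded ones. At a limit of 10 markers they were 18.75, 2.22 and 22.4% of 928, 45 and 277 barcodes in wounded and 14.5 and 8.97% of 2560 and 234 barcodes in un-wounded libraries, a difference of 2.72 points in the other direction. No test was made, because the levels of the genes of the rule set this share, and fewer late cells cannot be told apart from more cells of other types.

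Among spinous cells of both stages, the late ones were the majority in every library. They made up 70.3%, 81.0% and 94.4% of 744, 42 and 108 spinous barcodes in the wounded libraries, and 69.8% and 79.8% of 884 and 535 in the un-wounded ones. The ranges overlapped, with averages of 81.9 ± 12.1% in wounded and 74.8 ± 7.08% in un-wounded skin.

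**Figure D1:**
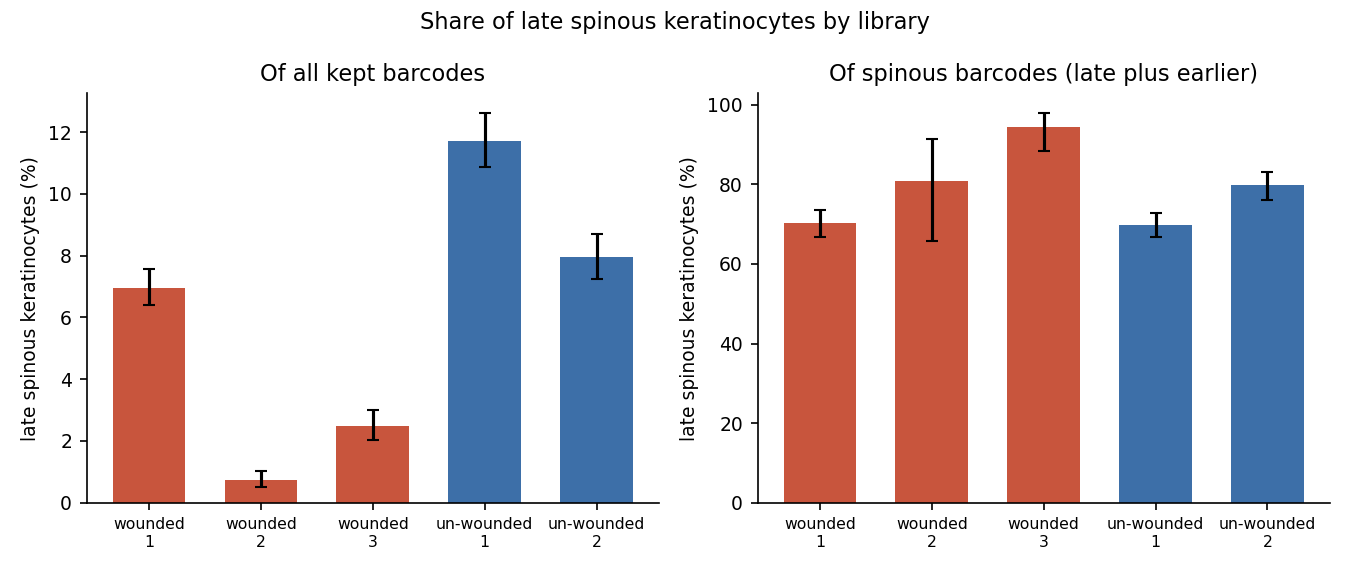
Share of late spinous keratinocytes in each library, as a percentage of all kept barcodes (left) and of late plus earlier spinous barcodes (right). Bars are single libraries, wounded in red and un-wounded in blue, with 95% Clopper-Pearson intervals; on the left the wounded libraries lie between 0.744% and 6.96% and the un-wounded ones at 11.7% and 7.95%.

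The members carried all 6 markers of the late spinous stage in every library, including the 3 that the rule did not use. Krtdap, a secreted protein, stood at 11036, 14033 and 8265 CPM in late cells of the wounded libraries, against 3340, 2938 and 1570 CPM in earlier cells of those libraries. In un-wounded skin Krtdap was 10547 and 10287 CPM in late cells, against 3612 and 4825 CPM in earlier cells. Every library thus had more Krtdap in its late cells, by 1.80 on the log2 scale on average. Ly6g6c, a gene of the LY6 family of small surface and secreted proteins, had 1957, 1044 and 1055 CPM in wounded late cells and 1827 and 1301 CPM in un-wounded late cells. In earlier cells it had 313, 126 and 507 CPM in wounded and 354 and 343 CPM in un-wounded libraries, a mean log2 difference of 2.18 between the stages. Elovl4, which makes the very long chain fatty acids of the skin barrier, had 302, 322 and 211 CPM in wounded late cells and 312 and 244 CPM in un-wounded late cells, 1.45 higher on the log2 scale than in earlier cells. The 6 markers summed to 14850 to 21105 CPM in wounded and 16806 to 17545 CPM in un-wounded members, against 432 to 1608 CPM in wounded and 559 to 716 CPM in un-wounded basal-rule cells (Krt5 plus Krt14 at least 50 per 10000 and Krt1 plus Krt10 under 100).

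The genes of the rule are given as a description only. Krt77, a keratin of differentiated skin on chromosome 15, had 2774, 3258 and 2657 CPM in wounded members and 2850 and 2896 CPM in un-wounded ones. Sbsn had 2096, 2381 and 2610 CPM in wounded and 1888 and 1991 CPM in un-wounded members, and Krt78 had 98.6, 66.4 and 52.1 CPM against 121 and 86.8 CPM. Krt77 and Krt78 overlapped between wounded and un-wounded libraries, whereas all 3 wounded Sbsn values lay above both un-wounded ones. Krt77 alone reached the threshold of 10 per 10000 in 75.5, 76.5 and 67.6% of wounded members and 78.4 and 77.5% of un-wounded members. Sbsn alone reached it in 59.7, 67.6 and 72.5% of wounded members, against 44.9 and 56.2% of un-wounded ones. Krt78 alone did so in 3, 0 and 0 wounded members and 2 and 2 un-wounded members, so the choice rested on Krt77 and Sbsn.

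Loricrin, which defines the granular layer, was scarce in the members. Its gene Lor, for the main protein of the cornified envelope, stood at 7.12, 7.97 and 6.59 CPM in wounded and 9.95 and 15.3 CPM in un-wounded members. Other differentiation genes were well represented in both groups: Lgals7, a galectin of stratified epithelia, had 19836, 24155 and 21182 CPM in wounded and 18053 and 17568 CPM in un-wounded members. Dmkn had 6135, 4765 and 5086 CPM against 5607 and 4679 CPM. Mt4, a metallothionein of stratified epithelium, had 1740, 2333 and 1444 CPM against 1303 and 2684 CPM. Calm4, a calmodulin-like protein of differentiating epidermis, had 3343, 3659 and 3205 CPM against 3000 and 2110 CPM. Scel (sciellin), a precursor of the cornified envelope, had 179, 114 and 127 CPM against 166 and 160 CPM.

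For a count over genes, at least 50 CPM in the higher stage was required in the 3 libraries with 30 or more cells of both stages. This level was passed by 1893 genes of any kind. Rule genes, mitochondrial and ribosomal genes and gene models without a name were then left out. Among the rest, 309 were higher and 131 lower in late than in earlier cells in all 5 libraries. The 309 and 131 are therefore not shares of the 1893. The markers Krtdap and Ly6g6c were among the 309. These contrasts follow from the rule and were not tested, and the earlier sums of wounded libraries 2 and 3 rest on 8 and 6 cells. High mean log2 ratios of late over earlier cells were those of Alox12e at 2.80, Rbp2 at 2.55, Ly6g6c at 2.18 and Skint9 at 2.11. Alox12e is an epidermal lipoxygenase, Rbp2 a retinol-binding protein, and Skint9 belongs to the Skint family of immunoglobulin-like proteins of skin and thymus. Krt17 followed at 2.04, but its mean over the 3 better filled libraries was 0.29, and wounded library 2 alone had 1007 CPM in late cells and 0 in its 8 earlier ones. Spink5, an inhibitor of the proteases that shed the outer layer, stood at 1.84, Krtdap at 1.80, and Sdr16c5, a retinol dehydrogenase, and Tesc, a calcium-binding protein, at 1.76 each.

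Genes of the basal layer were at the other end. Krt5 had 1459, 383 and 1244 CPM in wounded and 1646 and 1486 CPM in un-wounded late cells, against 5215, 2393 and 4710 CPM in wounded and 4673 and 3784 CPM in un-wounded earlier cells, a mean log2 ratio of -1.85. Krt15, a keratin of basal and hair follicle cells, followed at -1.05, the secreted protease gene Htra1 at -1.04, the alarmin cytokine gene Il33 at -1.02, Cd59a, which blocks complement, at -0.97, and Lsm3, of the splicing machinery, at -0.92. Of the 10 basal keratinocyte markers, 6 were lower and 0 higher in late cells of all 5 libraries. Of 32 barrier lipid genes 9 were higher and 3 lower, and of 23 junction genes 5 were higher and 2 lower. Of the 34 granular and cornified envelope genes in the counts, out of 35, 6 were higher and 2 lower. Among all 10442 genes tested for the wound effect 556 were higher and 1087 lower in all 5 libraries. A part of a UMI was added to each gene, and late sums were the larger, so a gene without UMIs counted as lower. The barrier lipid and granular lists each held 2 genes at 0 in all libraries. Their falls may be such genes, and the counts of lower genes may be too high.

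**Figure D2:**
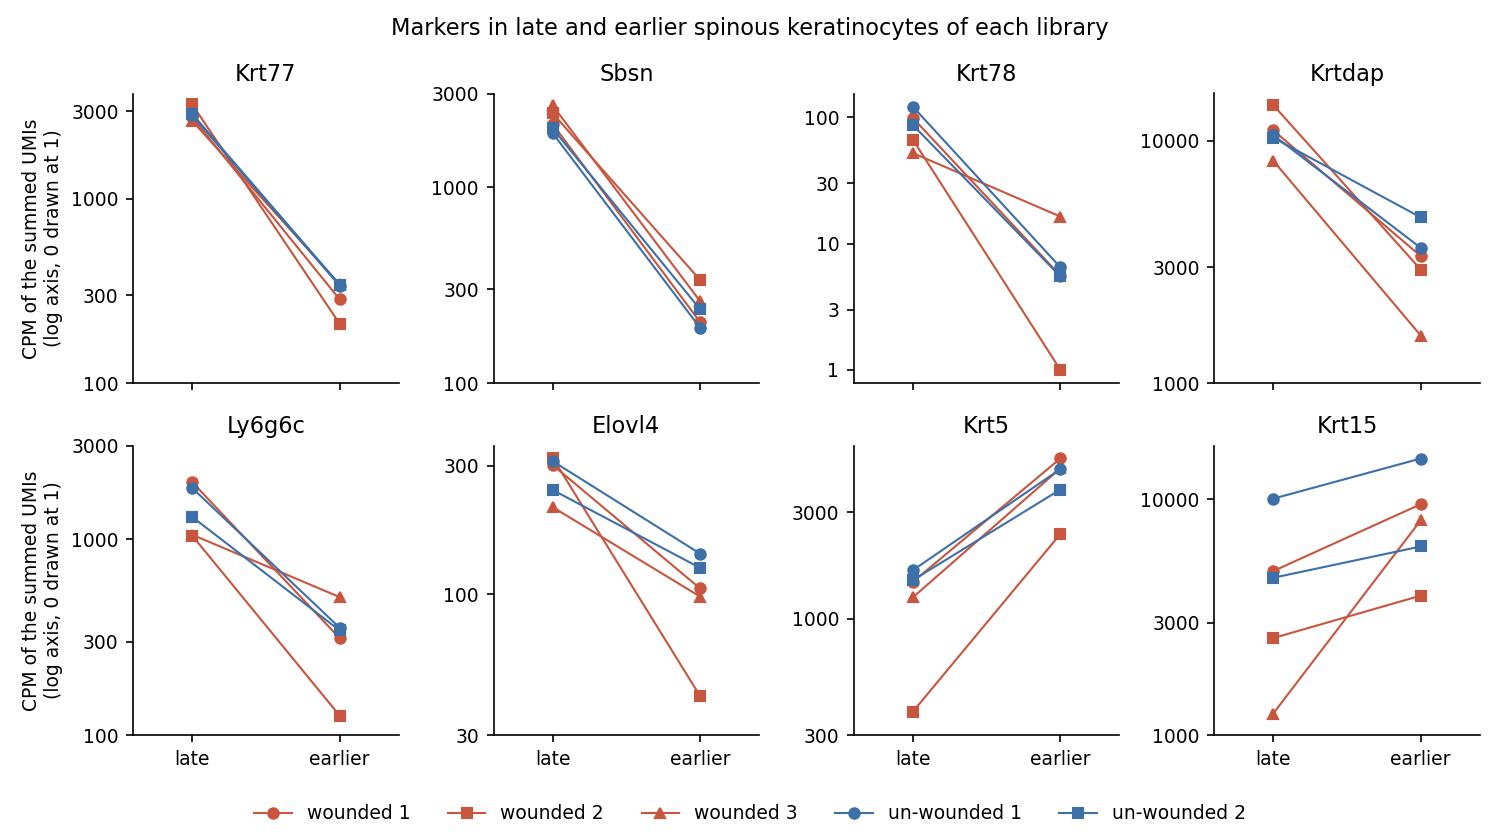
CPM of the 6 late spinous markers and of Krt5 and Krt15 in late (left) and earlier (right) spinous keratinocytes, on log axes; each line joins the 2 sums of 1 library, wounded in red and un-wounded in blue, and a sum of 0 is drawn at 1. All 5 lines fall from late to earlier cells for the markers and rise for Krt5 and Krt15, and the 0 is Krt78 in the 8 earlier cells of wounded library 2.

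Within the spinous cells the threshold cut a continuous range. In wounded library 1, cells were sorted by the summed level of Krt77, Krt78 and Sbsn into 8 bins, from below 2 to 80 and over per 10000, and Krtdap ran through 2498, 3240, 4415, 4331, 7088, 8876, 12257 and 18945 CPM. In un-wounded library 1 it ran through 3170, 3846, 3269, 4699, 6390, 9015, 12574 and 19046 CPM, and in un-wounded library 2 it was 1760 CPM in the lowest bin and 18499 CPM in the highest. Krt5 was lower in each higher bin of these 3 libraries, with 5471 CPM in the lowest and 199 CPM in the highest bin of wounded library 1, 5584 and 390 CPM in un-wounded library 1, and 4349 and 515 CPM in un-wounded library 2. Wounded library 3 had 24, 31, 32 and 10 cells in its highest 4 bins, where Krtdap was 4937, 6353, 9345 and 14922 CPM and Krt5 was 2850, 1863, 183 and 23.8 CPM. The highest bin held 6 cells of wounded library 2, and the lowest 10 of un-wounded library 2. Fabp5, the epidermal fatty acid-binding protein, stood in the highest bin at 1736, 3119 and 3958 CPM in wounded libraries 1, 2 and 3, against 1524 and 1418 CPM in un-wounded libraries 1 and 2.

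Just inside and just outside the threshold, Krtdap differed in no one direction. The bin of 10 to 12 per 10000 held 32 cells of wounded library 1 with 4331 CPM of Krtdap, and 58 and 24 cells of un-wounded libraries 1 and 2 with 4699 and 4061 CPM. The bin of 8 to 10 held 38 cells of wounded library 1 with 4415 CPM, and 55 and 27 cells of un-wounded libraries 1 and 2 with 3269 and 6535 CPM. Krtdap was thus higher inside the threshold in 1 library and lower in 2, and Elovl4 likewise. Ly6g6c was higher inside in each, at 592, 698 and 405 CPM against 370, 454 and 373 CPM in wounded library 1 and un-wounded libraries 1 and 2. Krt5 was lower inside in each, at 3816, 3197 and 3321 CPM against 4322, 4215 and 3613 CPM. Late and earlier cells are ranges of 1 measured level by the rule, and whether they are separate types was not tested.

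**Figure D3:**
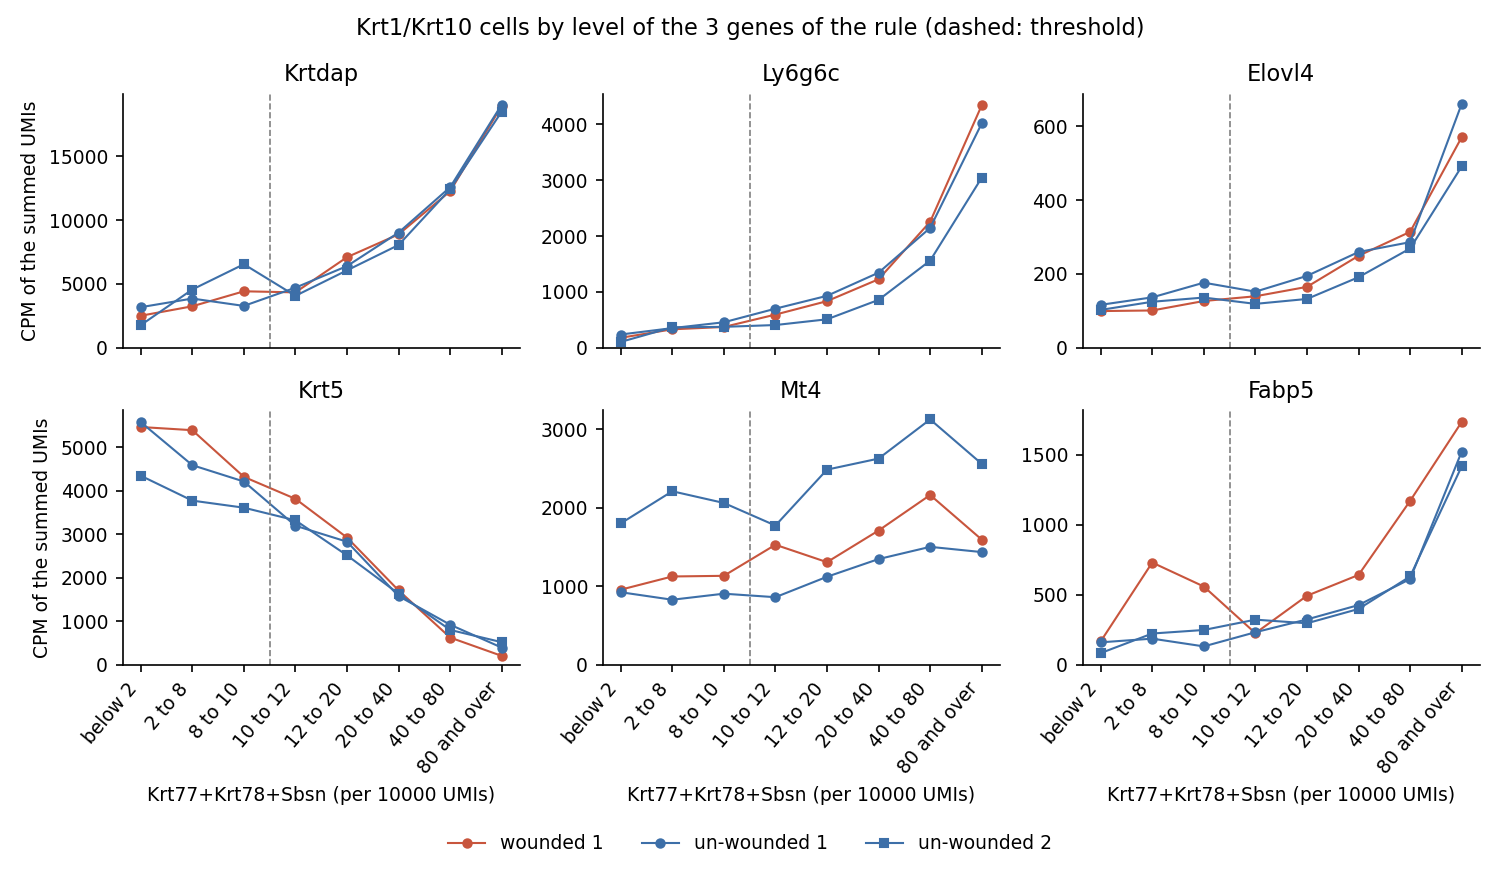
CPM of 6 genes over bins of the summed level of Krt77, Krt78 and Sbsn (per 10000 UMIs) among Krt1 and Krt10 cells of wounded library 1 (red) and un-wounded libraries 1 and 2 (blue circles and squares). The dashed line is the threshold of 10; Krtdap, Ly6g6c and Elovl4 climb to the highest bin, reaching 18945, 19046 and 18499 CPM for Krtdap, and Krt5 declines to 199, 390 and 515 CPM.

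The wound effect in late spinous keratinocytes was tested with edgeR's quasi-likelihood test on the library sums, with Benjamini-Hochberg adjustment over 10442 genes and calls at an adjusted p under 0.05. Of these genes 151 were called (1.45%), 146 of them higher in wounded skin (1.4%) and 5 lower (0.0479%), and 916 had an unadjusted p under 0.05. The median log2 fold change over all genes tested was -0.03. Many of the 146 rises had higher levels in other classes of cells. In 108 the wounded level was under about 1 part in 3 of that in wounded fibroblast-rule, myeloid-rule or basal-rule cells. Basal-rule cells are themselves keratinocytes. Of the called genes 82 were over 10 times higher in fibroblast-rule or myeloid-rule cells (collagens or the myeloid genes Lyz2, Cd74 and Tyrobp at 50 or more per 10000). Of the calls that met the condition of 1 part in 3, 19 rises and 2 falls also passed further conditions. These were size (log2 of at least 1), level (50 CPM in the higher group) and separation of the groups. The 12 largest rises and both falls are described here. The count of calls depended on single libraries: 12 genes were called without un-wounded library 1, 44 without un-wounded library 2, 154 without wounded library 1, 285 without wounded library 2 and 93 without wounded library 3.

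Some stress keratins, small proline-rich proteins, S100 proteins and stefins were called higher in the sums of wounded late cells. Of 33 wound-activated keratinocyte genes 19 could be tested, 11 of these were higher and 0 lower, and their median log2 fold change was 5.39 (5.29 with a gene absent from un-wounded cells set at its lower bound), beside 1.4% of all genes called higher and a median of -0.03. The 11 were Krt6a, Krt16, Sprr1a, Sprr1b, Sprr2a3, S100a8, S100a9, Stfa1, Stfa3, BC100530 and Slpi. The stress keratin Krt17 was not called, with 163, 1007 and 167 CPM in wounded and 238 and 57.3 CPM in un-wounded late cells. The calls of Sprr2a3 and Slpi were lost without un-wounded library 1 (7.08 and 6.00), and that of Sprr2a3 without un-wounded library 2 (7.20). The summed list stood at 2696 to 13106 CPM in wounded and 738 to 955 CPM in un-wounded members, and in basal-rule cells at 5630 to 10307 CPM in wounded and 1753 to 2168 CPM in un-wounded libraries. List and members were chosen with results of these data known.

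Krt16, the stress keratin at 11:100246091-100248902, was raised in every wounded library. It stood at 438, 1028 and 874 CPM in wounded late cells and at 49.2 and 63.5 CPM in un-wounded ones. All 3 wounded libraries lay far above both un-wounded ones, with a log2 fold change of 3.98 ± 0.44 (SE) and an adjusted p of 0.000436 in edgeR's quasi-likelihood test. Sprr1a, one of the small proline-rich proteins that are cross-linked at the cell border, had 354, 648 and 473 CPM in wounded and 84.9 and 96.7 CPM in un-wounded late cells. The groups did not overlap here either (log2 2.61 ± 0.34, edgeR adjusted p = 0.00113). Without un-wounded library 1 neither gene was called, at log2 fold changes of 3.77 for Krt16 and 2.48 for Sprr1a, and both calls held in the other alternatives run. Leaving out barcodes that held 10 or more per 10000 of markers of other lineages left 1 member in wounded library 2. Un-wounded library 2 kept 21 members. Libraries with under 10 members were not fitted, so wounded library 2 was absent from every wound effect fit at this limit. The Krt16 value was 2.56 there.

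Both genes were also found in more of the wounded than of the un-wounded late cells. A Krt16 UMI was present in 28.3% (24.5 to 32.4%), 32.4% (17.4 to 50.5%) and 47.1% (37.1 to 57.2%) of wounded late cells, library by library, against 11.02% and 8.90% in the un-wounded ones. Fibroblast-rule cells, which should lack the gene, held one in 9.30, 1.29 and 5.26% of wounded and 4.40 and 3.78% of un-wounded barcodes, at median depths of 7422, 6725.5 and 10089 UMIs and of 5089 and 7086 UMIs. After thinning every cell to 1500 UMIs the late shares were 15.5, 23.5 and 30.4% in wounded and 4.05 and 2.81% in un-wounded libraries, and the fibroblast-rule shares 2.01, 0.207 and 0.640% in wounded and 1.27 and 0.717% in un-wounded libraries. For Sprr1a the thinned late shares were 18.9, 20.6 and 17.6% in wounded and 6.97 and 5.39% in un-wounded libraries, and 0.805, 0.207 and 0.355% of wounded and 2.11 and 0.287% of un-wounded fibroblast-rule cells held one. The unthinned late shares of Sprr1a were 35.0, 44.1 and 42.2% in wounded and 18.3 and 13.3% in un-wounded libraries. All 3 wounded shares lay above both un-wounded ones before and after thinning for Krt16 and Sprr1a. Among the 221 earlier cells of wounded library 1, 29.9% held a Krt16 UMI and 18.6% a Sprr1a UMI. After thinning these were 13.6 and 7.69%. The Krt16 shares were close to those of the late cells of that library, and the Sprr1a shares were lower. None of the 8 and 6 earlier cells of wounded libraries 2 and 3 held a Krt16 UMI.

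S100a8 and S100a9, which form the antimicrobial protein calprotectin, had the largest fitted changes. S100a8 had 53.6, 1129 and 192 CPM in wounded late cells and 0 and 0.201 CPM in un-wounded ones. Its UMIs numbered 988 in wounded and 1 in un-wounded members, a pooled ratio of 1436 with a counting interval of 257 to 56769, and edgeR gave an adjusted p of 0.00123. S100a9 had 66.8, 609 and 200 CPM against 0.195 and 0.201 CPM, 870 against 2 UMIs, a pooled ratio of 632 (174 to 5228) and an edgeR adjusted p of 0.000436. UMIs of both genes were found in about as many of the wounded fibroblast-rule cells, and levels in myeloid-rule cells are not given here. For S100a9 the shares were 20.7, 61.8 and 57.8% of wounded late cells and 22.7, 48.5 and 63.3% of wounded fibroblast-rule cells. An S100a8 UMI was present in 20.3, 47.1 and 55.9% of wounded late cells and in 17.9, 34.5 and 48.6% of wounded fibroblast-rule cells, and after thinning in 4.21, 5.88 and 13.7% against 4.06, 8.70 and 10.7%. Whether these shares reflect expression in the late cells or RNA from other cells was not tested. The 2 barcodes with most S100a8 in each wounded library held 74.1% of its wounded UMIs. Without those barcodes both calls held, at fitted log2 fold changes of 10.52 for S100a8 and 10.99 for S100a9, and without wounded library 2 at 10.13 and 9.42.

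A cluster of stefins, inhibitors of cysteine proteases, rose with wounded library 2 in the lead. BC100530, a stefin-like gene at 16:36359382-36367748, had 85.2, 3882 and 628 CPM in wounded and 2.54 and 5.83 CPM in un-wounded late cells (log2 8.64 ± 1.37, edgeR adjusted p = 0.00415). Stfa3 had 23.3, 1244 and 266 CPM against 4.49 and 6.83 CPM (log2 6.60 ± 1.23, edgeR adjusted p = 0.0122). Stfa1 had 27.7, 1198 and 73.8 CPM against 8.78 and 12.7 CPM (log2 5.39 ± 1.24, edgeR adjusted p = 0.0461). Each wounded value exceeded both un-wounded ones, but 91.9, 94.4 and 94.7% of the BC100530, Stfa3 and Stfa1 UMIs of wounded library 2 sat in 2 of its 34 cells. Without wounded library 2 the log2 fold changes were 6.69, 4.93 and 2.42, and without the highest 2 barcodes of each library 6.70, 4.77 and 2.62. How reads were divided between these near-identical genes is uncertain, and BC100530 overlaps Gm15845 on the other strand.

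Krt6a, a stress keratin partner of Krt16, was called on few cells. It had 6.13, 314 and 5.27 CPM in wounded and 0.195 and 0.201 CPM in un-wounded late cells, which is 157 against 2 UMIs and a pooled ratio of 114 (31.1 to 950.3). It was present in 11, 1 and 3 wounded and 1 and 1 un-wounded members, and 91.1% of its wounded UMIs lay in the highest 2 barcodes of each library. The log2 fold change was 8.58 ± 1.97 (edgeR adjusted p = 0.0448), and 4.83 without wounded library 2. Its close copy Krt6b had 0.395, 787 and 0.659 CPM in wounded and 0 and 0 CPM in un-wounded late cells, so that a single library held nearly all of it and it was not tested.

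Sprr1b, another small proline-rich protein, had 39.7, 404 and 64.6 CPM in wounded and 2.93 and 1.21 CPM in un-wounded late cells (log2 6.31 ± 0.95, edgeR adjusted p = 0.00292, and log2 4.83 without wounded library 2). Ccl20, a chemokine that draws dendritic cells and lymphocytes to epithelia, had 84.2, 10.6 and 144 CPM against 2.15 and 2.41 CPM (log2 5.45 ± 0.70, edgeR adjusted p = 0.00111, and log2 4.72 without wounded library 3). A Ccl20 UMI was found in 5.35, 5.88 and 15.7% of wounded late cells, against 1.78 and 0.703% of un-wounded ones, and in 2.29, 0.466 and 0.782% of wounded and 1.05 and 0.143% of un-wounded fibroblast-rule cells. After thinning, the late shares were 2.49, 0 and 8.82% in wounded and 0.486 and 0.468% in un-wounded libraries, so that the groups overlapped. Asprv1, a protease that processes filaggrin, had 66.0, 85.0 and 223 CPM in wounded and 43.1 and 26.5 CPM in un-wounded late cells (log2 2.11 ± 0.49, edgeR adjusted p = 0.0479). In wounded library 3, 82.9% of the Asprv1 UMIs lay in 2 cells, and the log2 fold change was 0.93 without the highest 2 barcodes of each library, where the call was lost. Gadl1, a decarboxylase related to glutamate decarboxylase, had 43.9, 69.1 and 75.1 CPM against 22.4 and 13.3 CPM (log2 1.97 ± 0.35, edgeR adjusted p = 0.00894), with 11.3% of its wounded UMIs in the highest 2 barcodes of each library.

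Both named falls were moderate. Trim2, a ubiquitin ligase, had 22.7, 5.31 and 16.5 CPM in wounded and 51.7 and 57.1 CPM in un-wounded late cells, a log2 fold change of -1.45 ± 0.32 (edgeR adjusted p = 0.034). Ikzf2, the zinc finger transcription factor Helios, had 59.3, 79.7 and 43.5 CPM against 131 and 152 CPM, a log2 fold change of -1.13 ± 0.26 (edgeR adjusted p = 0.0473). All wounded libraries lay below both un-wounded ones for each gene. The other 3 falls, named after their values were seen, were Gm13830, Gm6483 and Gpha2, a glycoprotein hormone subunit with 8.30, 10.6 and 7.91 CPM in wounded and 34.5 and 28.7 CPM in un-wounded late cells. Its call was lost without un-wounded library 1 (-1.66) or 2 (-1.85) or wounded library 1 (-1.58). Gpha2 overlaps Ppp2r5b, and strand use in the counting is not given in the sources used here. Separation alone was common: in 25.4% of all genes tested the groups did not overlap, with the wounded libraries below both un-wounded ones in 19.3% and above them in 6.17%.

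**Figure D4:**
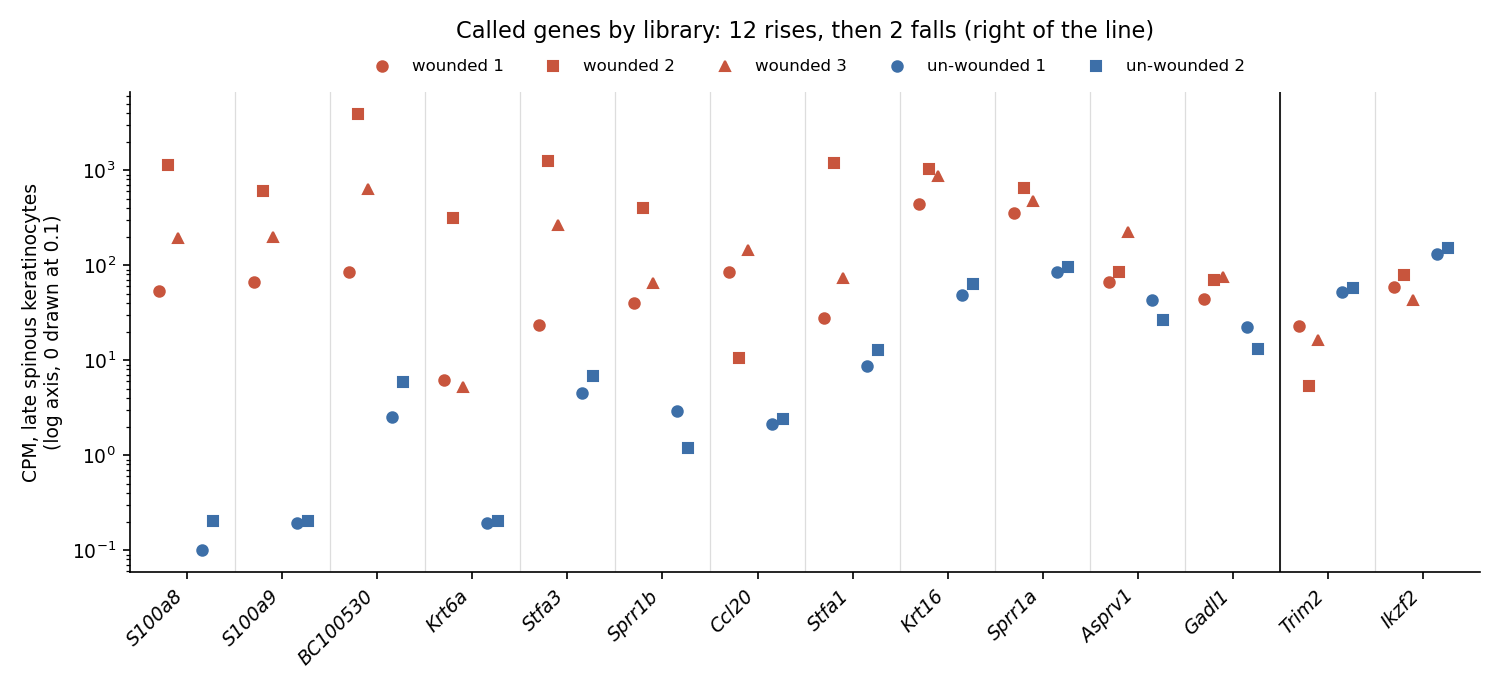
CPM in late spinous keratinocytes of each library for the 12 named rises and, right of the black line, the 2 named falls, on a log axis with 0 drawn at 0.1. Wounded libraries are red and un-wounded ones blue; Krt16 and Sprr1a keep their 3 wounded points close together, at 438 to 1028 and 354 to 648 CPM, while Krt6a and the stefins are led by wounded library 2.

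Leaving out 1 library ended most of these calls, mainly where an un-wounded library was dropped and 1 was left to stand for its group, its spread assumed to equal that of the others. S100a9 held in every such fit. Without un-wounded library 1 the log2 fold changes were 10.96 for S100a8, 8.14 for BC100530, 8.55 for Krt6a, 6.31 for Stfa3, 7.07 for Sprr1b, 5.31 for Ccl20, 5.15 for Stfa1, 2.45 for Asprv1, 2.35 for Gadl1, -1.57 for Trim2 and -1.26 for Ikzf2, and none was called. Without un-wounded library 2 they were 13.52 for S100a8, 9.40 for BC100530, 8.66 for Krt6a, 6.99 for Stfa3, 5.90 for Sprr1b, 5.55 for Ccl20, 5.75 for Stfa1, 1.82 for Asprv1, 1.67 for Gadl1, -1.36 for Trim2 and -0.97 for Ikzf2, again uncalled. Without wounded library 3 the calls of Asprv1 at 1.17, Gadl1 at 1.65, Trim2 at -1.48 and Ikzf2 at -0.99 were lost, and without wounded library 1 that of Ikzf2 at -1.04. The direction held in each of these fits. Calls were also lost without the highest doublet scores for Krt6a (8.50), Stfa1 (5.38), Asprv1 (2.15), Trim2 (-1.38) and Ikzf2 (-1.08), with DESeq2 for Stfa1 (5.49) and Asprv1 (2.12), and with the rule on thinned barcodes for Krt6a (6.91), Trim2 (-1.33) and Ikzf2 (-1.08). A threshold of 20 instead of 10 per 10000 ended that of Asprv1 (2.08), and a threshold of 5 those of Krt6a (7.10) and Ikzf2 (-1.08). Without barcodes holding 10 or more lineage markers per 10000 the calls of Trim2 (-1.23) and Ikzf2 (-1.17) were lost, and that of Ikzf2 also at a limit of 50 (-1.08) and without genes 10 times higher in other cells (-1.10).

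Few genes of differentiation were called, and of all genes tested 1.45% were called. Of the 6 late spinous markers and of the 10 spinous markers, all tested, 0 were called, with median log2 fold changes of 0.17 and 0.43. Of 17 granular and cornified envelope genes tested, out of 35, 2 were higher and 0 lower, with a median of 0.59. These were Asprv1 and Ivl (involucrin), a scaffold protein of the cornified envelope, with 28.3, 15.9 and 46.8 CPM in wounded and 9.56 and 12.3 CPM in un-wounded late cells (log2 1.77 ± 0.39, edgeR adjusted p = 0.0341). Of 24 barrier lipid genes tested, out of 32, 1 was higher, with a median of 0.08. It was Ugcg, which makes glucosylceramide, with 28.5, 18.6 and 29.7 CPM against 9.95 and 12.3 CPM (log2 1.46 ± 0.31, edgeR adjusted p = 0.0276). Fabp5 had 935, 3625 and 1784 CPM in wounded and 617 and 597 CPM in un-wounded late cells, and its log2 fold change of 1.98 ± 0.48 missed the threshold (edgeR adjusted p = 0.059). Of 12 secreted and LY6 genes tested, out of 17, and of 20 junction genes tested, out of 23, 0 were called, with medians of 0.08 and 0.21. The calls of Ivl and Ugcg were both lost when un-wounded library 1 was dropped (1.56 and 1.27), and likewise un-wounded library 2 (1.99 and 1.64) or wounded library 3 (1.25 and 1.28), and that of Ugcg also without wounded library 1 (1.51) or without TMM (1.28). The Ivl call was further lost without the highest 2 barcodes of each library (1.22) and at a threshold of 20 per 10000 (1.69).

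Other abundant genes of these lists overlapped between the groups. Calm5, a calmodulin-like gene like Calm4, had 621, 399 and 402 CPM in wounded and 748 and 528 CPM in un-wounded late cells, and the ranges overlapped. Acer1, an epidermal ceramidase, had 256, 167 and 170 CPM against 330 and 225 CPM, and Ly6d, of the LY6 family, 3912, 3688 and 2540 CPM against 4028 and 3267 CPM. Among junction genes Perp, a component of desmosomes, had 7037, 4111 and 5773 CPM in wounded and 6478 and 4319 CPM in un-wounded late cells. Jup (plakoglobin) had 984, 757 and 822 CPM against 798 and 753 CPM, and Dsp (desmoplakin) 707, 829 and 648 CPM against 673 and 878 CPM. The ranges of the groups overlapped for each of these junction genes and for Acer1 and Ly6d.

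Regulators and stress genes gave no calls, beside 1.45% of all genes tested. Of 26 fate transcription factors and Notch genes tested, out of 27, and of 17 AP-1 and dissociation stress genes, 0 were called, with medians of 0.30 and 0.20. Klf4, a factor of terminal differentiation, had 519, 460 and 411 CPM in wounded and 390 and 486 CPM in un-wounded late cells, and the ranges overlapped. Gata3, a factor of barrier formation, had 423, 412 and 368 CPM against 513 and 527 CPM, lower in each wounded library but uncalled at a log2 fold change of -0.21 ± 0.26 (edgeR adjusted p = 0.941). Cebpb, which acts in the exit from the cell cycle, had 378, 502 and 15.8 CPM against 148 and 184 CPM, with wounded library 3 far below the rest. Hspb1, a small heat shock protein, had 2981, 1767 and 2238 CPM against 2932 and 2174 CPM. Fos, an AP-1 subunit, had 2668, 1507 and 1362 CPM against 2925 and 2058 CPM, and Atf3, a stress-induced factor, 3091, 911 and 1880 CPM against 2483 and 1690 CPM. The AP-1 and stress list, which cell isolation is known to raise, summed to 12354 to 25004 CPM in wounded and 15241 to 20846 CPM in un-wounded members.

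Some signalling and metabolic genes were called higher, beside 1.4% of all genes tested. Of 15 chemokines and cytokines tested, out of 20, 7 were higher and 0 lower, with a median of 2.60: Ccl20, Cxcl1, Cxcl2, Cxcl3, Cxcl5, Il1b and Tnf. Cxcl2, a neutrophil chemoattractant, had 208, 292 and 502 CPM in wounded and 0.390 and 3.62 CPM in un-wounded late cells (log2 7.58 ± 0.70, edgeR adjusted p = 0.000301), beside 7154 CPM in wounded myeloid-rule and 1154 CPM in wounded fibroblast-rule cells. The part of such RNA in the late sums was not tested. Without un-wounded library 1 the calls of Cxcl1 (4.95), Cxcl3 (8.69) and Cxcl5 (7.56) were lost. Tnf, at 3.46, lost its call without un-wounded library 1 (3.56) or 2 (3.36), wounded library 3 (2.91) or the highest doublet scores (2.43), at a threshold of 20 per 10000 (1.74) and with the rule on thinned barcodes (3.14). Il1b, an inflammatory cytokine, had 61.7, 149 and 111 CPM in wounded and 3.71 and 7.84 CPM in un-wounded late cells (log2 4.32 ± 0.46, edgeR adjusted p = 0.000436). Cxcl14 and Cxcl16, the next most abundant, did not pass: Cxcl14 had 206, 55.8 and 109 CPM against 372 and 246 CPM (edgeR adjusted p = 0.249), and Cxcl16 130, 53.1 and 185 CPM against 47.2 and 45.4 CPM (edgeR adjusted p = 0.0506). Of 18 glycolysis and hypoxia genes 3 were higher, with a median of 0.46: Hk2, Ndrg1 and Adm. Ndrg1, a hypoxia-responsive gene, had 56.7, 79.7 and 76.5 CPM in wounded and 31.0 and 26.7 CPM in un-wounded late cells (log2 1.45 ± 0.29, edgeR adjusted p = 0.017), and Adm, the vasoactive peptide adrenomedullin, 48.0, 55.8 and 42.8 CPM against 22.4 and 10.4 CPM (log2 1.71 ± 0.32, edgeR adjusted p = 0.0127). Dropping un-wounded library 1 (1.52) or 2 (1.38) or wounded library 3 (1.26) ended the Ndrg1 call, and dropping un-wounded library 2 (1.29) or wounded library 3 (1.71) ended that of Adm, as did leaving out barcodes with 10 or more lineage markers per 10000 (0.98). Hk2 was not called without un-wounded library 1 (2.44) or 2 (2.90) or wounded library 3 (2.65). Of 18 oxidative phosphorylation genes 0 were called, with a median of 0.26. Cox4i1, the most abundant of them, had 1089, 1082 and 1210 CPM in wounded and 1228 and 1082 CPM in un-wounded late cells. Of 8 interferon response genes tested, out of 12, 2 were higher (Ifi27l2a and Rsad2, median 1.51), of 10 metallothionein and redox genes 1 was higher (Hmox1, median 0.45), and of 10 MHC class I genes 0 were called (median -0.07). Ifi27l2a, an interferon-induced gene, had 40.7, 55.8 and 42.2 CPM in wounded and 7.02 and 7.03 CPM in un-wounded late cells (log2 2.82 ± 0.30, edgeR adjusted p = 0.000436). Its call held in the 17 alternatives that tested it, out of 18 run. The part of RNA from other cells in the Ifi27l2a and Il1b sums was not tested. Rsad2 and Hmox1 were not called without un-wounded library 1 (7.03 and 3.54) or 2 (7.07 and 4.31). B2m, the MHC class I light chain, had 2650, 1884 and 2266 CPM against 2481 and 1787 CPM, and Mt1, a metallothionein, 1798, 2288 and 2835 CPM against 1194 and 2594 CPM, both overlapping. Of 5 EGF receptor and ligand genes tested, out of 8, 0 were called (median 1.09), and Hbegf, a heparin-binding ligand, had 326, 74.4 and 166 CPM in wounded and 121 and 85.4 CPM in un-wounded late cells. Areg (amphiregulin) had 95.3, 7.97 and 163 CPM against 45.4 and 33.6 CPM, with wounded library 2 below and the other 2 wounded libraries above the un-wounded ones. Of 10 proliferation genes tested, out of 18, 0 were called (median 0.03), and Pcna, a replication clamp, had 29.5, 37.2 and 15.8 CPM in wounded and 41.9 and 28.7 CPM in un-wounded late cells.

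Aqp3 and Cysrt1, picked out after their values were seen, also separated the groups. Aqp3, the water and glycerol channel of the epidermis, had 147, 226 and 129 CPM in wounded and 56.8 and 49.6 CPM in un-wounded late cells (log2 1.78 ± 0.28, edgeR adjusted p = 0.00428). Cysrt1, a cysteine-rich tail protein, had 78.5, 93.0 and 78.4 CPM against 32.4 and 32.8 CPM (log2 1.51 ± 0.26, edgeR adjusted p = 0.00638). Both calls were lost without un-wounded library 1 (1.85 and 1.46) or un-wounded library 2 (1.73 and 1.55), and that of Aqp3 also without barcodes holding 10 or more lineage markers per 10000 (0.81).

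Some markers of other cells moved with wounding in these sums, where 1.4% of all genes tested were called higher. Of 7 myeloid markers tested, out of 8, 3 were higher (Lyz2, Tyrobp and Fcer1g, median 1.95), and the list summed to 434 to 1539 CPM in wounded and 218 to 249 CPM in un-wounded members. In basal-rule cells the same sum was 307 to 763 CPM in wounded and 150 to 229 CPM in un-wounded libraries. All 5 skeletal muscle markers were higher (median 3.77; Acta1, muscle actin, had 132, 23.9 and 24.4 CPM in wounded and 4.68 and 2.21 CPM in un-wounded members), with sums of 61.3 to 279 CPM in wounded and 11.7 to 21.5 CPM in un-wounded members. Of 2 neutrophil markers tested, out of 6, Retnlg was higher (33.4 to 50.5 CPM summed, against 17.9 to 22.4 CPM), and of 3 endothelial and mural markers, out of 5, Rgs5 was higher (11.9 to 160 CPM summed, against 4.62 to 13.7 CPM). Postn, which codes for a matrix protein and stands in both the basal and the bulge list, was the only gene called in the 10 basal markers (median -0.46) and the 5 bulge and outer root sheath markers tested, out of 7 (median -0.34). Without un-wounded library 1 or un-wounded library 2, none of Lyz2 (2.44 and 3.85), Tyrobp (2.80 and 3.00), Fcer1g (2.74 and 1.94), Retnlg (4.67 and 8.08), Rgs5 (9.47 and 4.97), Acta1 (4.96 and 3.97) and Postn (1.66 and 2.13) was called. Lyz2 (1.99) and Retnlg (5.14) were also lost without wounded library 3, and Postn (1.38) without wounded library 1. No call fell among the 6 fibroblast markers (935 to 2049 CPM summed in wounded, 741 to 2035 CPM in un-wounded members; median 0.20), the 7 upper hair follicle markers (median 0.45), the 5 sebocyte markers tested, out of 8 (median 0.27), the 4 T cell markers tested, out of 6 (median -0.02), the 3 erythroid markers tested, out of 4 (median -0.67), or the 1 inner root sheath marker tested, out of 8. Of 4 melanocyte markers 0 could be tested, and together they summed to 0 to 1.58 CPM in wounded and 0.585 to 1.21 CPM in un-wounded members. The part of such RNA in the called genes was not tested beyond leaving out genes over 10 times higher in fibroblast-rule or myeloid-rule cells, where 67 of 9675 genes were called, 57 of them among the 151.

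The wound effect was then compared between late and earlier cells, as an interaction of stage and wounding with library as a block. Of 8797 genes 6 were called by edgeR's quasi-likelihood test (0.0682%), 5 with a higher ratio of wounded to un-wounded skin in late than in earlier cells and 1 with a lower one, and 265 had an unadjusted p under 0.05. Krt16 had 438, 1028 and 874 CPM in wounded late cells and 49.2 and 63.5 CPM in un-wounded late cells. In earlier cells it had 279, 0 and 0 CPM in wounded and 55.9 and 71.4 CPM in un-wounded libraries, where the 0 of wounded libraries 2 and 3 allows up to 63.0 and 49.1 CPM (3 counts). In wounded library 1, the best filled, both stages thus exceeded the un-wounded ones. The interaction was 2.30 ± 0.37 on the log2 scale (edgeR adjusted p = 4.24e-06). Sprr1a had 138, 63.0 and 49.1 CPM in wounded and 62.8 and 64.1 CPM in un-wounded earlier cells, an interaction of 1.52 ± 0.36 (edgeR adjusted p = 0.0379).

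Il33, lower in late than in earlier cells, differed less between the stages in wounded skin. It had 67.0, 21.3 and 105 CPM in wounded late cells and 40.8 and 21.7 CPM in un-wounded late cells, against 96.3, 42.0 and 114 CPM in wounded earlier cells and 110 and 69.6 CPM in un-wounded earlier cells (interaction 1.13 ± 0.27, edgeR adjusted p = 0.0411). Krtdap had an interaction of 1.10 ± 0.26 (edgeR adjusted p = 0.0379), although its late cells showed no called wound effect (log2 0.25 ± 0.35, edgeR adjusted p = 0.945). Its values in earlier cells were lower in wounded skin, at 3340, 2938 and 1570 CPM, against 3612 and 4825 CPM in un-wounded skin. Apod, an apolipoprotein, had 84.6, 15.9 and 42.2 CPM in wounded and 3.32 and 6.83 CPM in un-wounded late cells, and 35.6, 21.0 and 0 CPM in wounded and 6.48 and 21.1 CPM in un-wounded earlier cells (interaction 2.67, edgeR adjusted p = 3.45e-05). In wounded members 83.9% of the Apod UMIs lay in the highest 2 barcodes of each library, wounded fibroblast-rule cells held 1190 CPM, and the interaction was 0.11 without the highest doublet scores and 0.02 without barcodes rich in markers of other lineages. Igfbp2, a binding protein of insulin-like growth factors and the 1 gene in the other direction, had 13.2, 13.3 and 6.59 CPM in wounded and 15.0 and 13.7 CPM in un-wounded late cells, against 47.3, 42.0 and 0 CPM in wounded and 8.48 and 13.7 CPM in un-wounded earlier cells (interaction -2.17 ± 0.42, edgeR adjusted p = 0.000893).

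These differences rest on few earlier cells. Without un-wounded library 1, and likewise without un-wounded library 2, 0 genes were called, at unadjusted counts of 123 and 80, and DESeq2 called 0 at an unadjusted count of 34. Without wounded library 1 there were 68 calls, without wounded library 2 there were 10 and without wounded library 3 there were 3. The Krt16 interaction was 3.10 without un-wounded library 1 and 3.22 without un-wounded library 2, neither called, and it was called at 1.38 without wounded library 2 and 1.52 without wounded library 3. Without wounded library 1 no Krt16 UMI was left in wounded earlier cells, so its fitted value is not given. The Sprr1a interaction was not called without un-wounded library 1 (1.83) or 2 (2.03) or wounded library 3 (1.16), and was called without wounded library 1 (3.16) or wounded library 2 (1.07). At a threshold of 20 instead of 10 per 10000 the interactions were 0.64 for Krt16 and 0.40 for Sprr1a, and at a threshold of 5 they were 2.93 and 1.89, with none of the 4 called. Il33 was called without wounded library 2 (1.10), and not without un-wounded library 1 (1.43) or 2 (1.21), wounded library 1 (1.60) or wounded library 3 (1.02). Krtdap was called without wounded library 1 (1.34), and not without un-wounded library 1 (1.35) or 2 (0.91), wounded library 2 (0.89) or wounded library 3 (0.90). Igfbp2 was not called without un-wounded library 1 (-1.63) or 2 (-2.47) or wounded library 1 (-0.99). Apod was not called without un-wounded library 1 (2.96) or 2 (2.30) or wounded library 1 (3.48). The 3 libraries with 30 or more cells of each stage were un-wounded libraries 1 and 2 and wounded library 1. In a fit of these, with 1 wounded library, the interactions were 0.83 for Krt16 and 0.86 for Sprr1a.

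**Figure D5:**
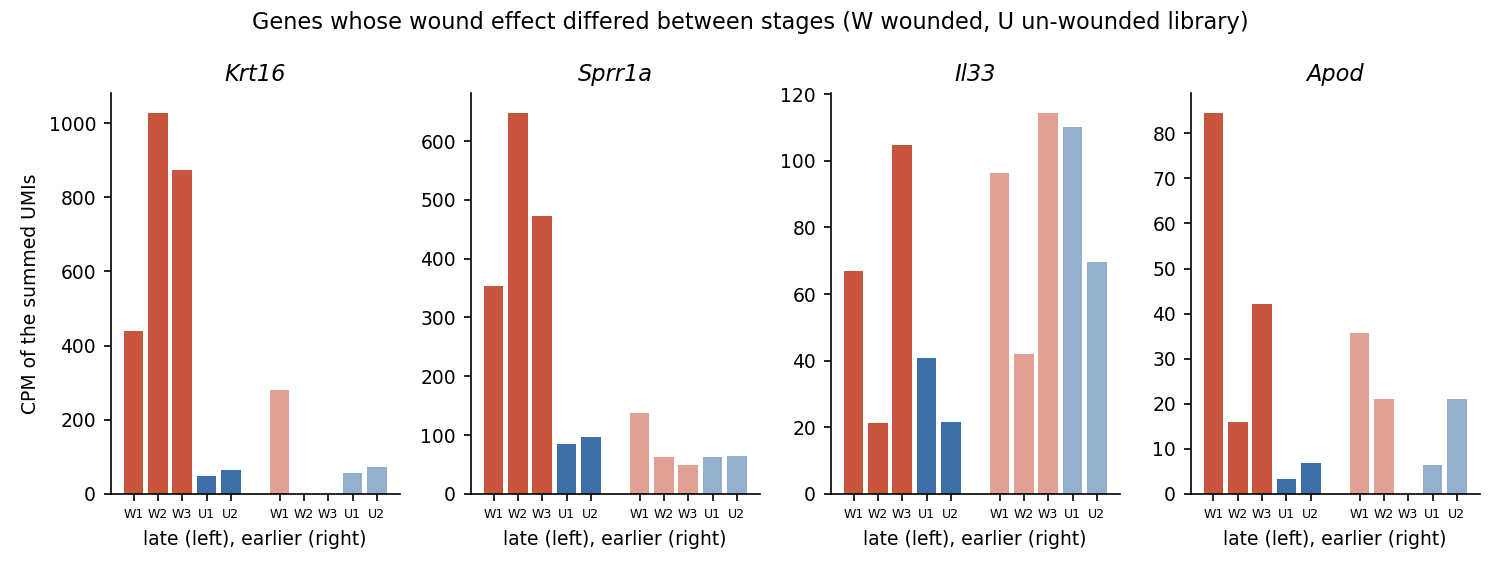
CPM of Krt16, Sprr1a, Il33 and Apod in late (left group of bars, full colour) and earlier (right group, pale) spinous keratinocytes of wounded libraries W1 to W3 (red) and un-wounded libraries U1 and U2 (blue). Krt16 is high in all 3 wounded late sums, at 438, 1028 and 874 CPM, and in earlier cells only that of W1 shows it above the un-wounded libraries, at 279 CPM.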

How the data were processed

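Single-cell RNA-seq was made from live-sorted C57BL/6 mouse skin with 10x Genomics 3′ v1 reagents and an Illumina sequencer, per the labels. The authors deposited raw UMI counts per gene and barcode for each library, and the submitters' processing notes name Cell Ranger 1.3.1 and the build mm10. The annotation, cell calling settings and use of strand are not given in the sources used here. No doublet removal is stated, and none was applied in the main results. From the deposited counts, barcodes were kept and members chosen by the rule in the report, UMIs were summed per library and stage, and genes were tested in R 4.3.3 by the quasi-likelihood F-test of edgeR 4.0.16, after filterByExpr and TMM scaling, with Benjamini-Hochberg adjustment over all genes tested. Standard errors of log2 fold changes were derived from the F statistic. CPM are plain shares of the summed UMIs, while log2 fold changes carry the TMM factors (0.845 to 1.04 in wounded, 1.04 and 1.10 in un-wounded libraries). Members and gene lists were chosen with earlier results of these data known.

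Genes named for the wound effect had an adjusted p under 0.05, an absolute log2 fold change of at least 1, 50 CPM in the higher group, groups that did not overlap, and at least about 1 part in 3 of the level in fibroblast-rule, myeloid-rule and basal-rule cells of that group. Rule genes, mitochondrial, ribosomal and unnamed-model genes were left out, the 12 largest rises and up to 10 falls were taken, and 19 rises and 2 falls met the conditions. Also named were the 4 largest interactions in each direction with 50 CPM in a sum, the 10 highest and 6 lowest late over earlier ratios (0.5 UMI added), and abundant members of each list; 1 gene that met these conditions is not reported here. Other genes, among them the called members of lists, were chosen after their values were seen. Alternatives were DESeq2 1.42.0 size factors and test, no filter, no TMM, a replicate block, leaving out each library, stricter and looser rules, removal of the highest Scrublet scores (0.8% per 1000 barcodes), of barcodes with markers of other lineages, and of the 2 barcodes highest for each gene. Leaving out barcodes with 50 lineage markers per 10000, and using only libraries with 30 cells of each stage, were chosen after seeing the data. On simulated counts with 200 changed genes among 10442, 13% of 2-fold and 71% of 4-fold wound effects were recovered, with 6 false among 90 calls; among 8797, 23% of 2-fold and 74% of 4-fold interactions were recovered, with 1 false among 98 calls. Positions came from GENCODE M21 on GRCm38, by Ensembl ID.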

Additional observations from a re-analysis of the deposited data

Results flagged for a closer look

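The wound effect of 6 genes differed between late and earlier spinous keratinocytes by a test of the difference itself (edgeR's quasi-likelihood test of the interaction of stage and wounding, Benjamini-Hochberg over 8797 genes). The log2 interactions were 2.67 for Apod, 2.30 for Krt16, 1.52 for Sprr1a, 1.13 for Il33 and 1.10 for Krtdap, each a higher ratio of wounded to un-wounded skin in late than in earlier cells, and -2.17 for Igfbp2. Krtdap itself was not called in late cells (0.25) and was lower in wounded than in un-wounded earlier cells. Earlier cells numbered 221, 8 and 6 in the wounded libraries and 267 and 108 in the un-wounded ones. Wounded libraries 2 and 3, which hold 8 and 6 of them, had no Krt16 UMI in these cells. The Apod interaction was 0.11 without the highest doublet scores, and 0.02 without barcodes holding 50 or more per 10000 of lineage markers.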

How the results depend on the processing

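The 151 wound effect calls became 426 without the filter on low counts, 88 without the highest doublet scores, 232 without the 2 barcodes highest for each gene, 67 without genes 10 times higher in other cells, and 12 to 285 with 1 library left out. The labels do not say whether equal library numbers are pairs. Deviations from the group mean correlated at 0.282 for number 1 and 0.177 for number 2, and at -0.282 to 0.0164 between unlike numbers. The deviations of the 2 un-wounded libraries mirror each other, so these values cannot decide whether the samples are paired. A fit with the replicate block called 272 genes, 141 of them shared. It takes equal numbers as pairs, and wounded library 3, alone with its number, adds nothing to the wound effect there. The count of 272 rests on that assumption. DESeq2 called 159 (126 shared), and other settings called 114 to 157. Without barcodes holding 10 or more lineage markers per 10000, a fit that also lacked wounded library 2, 56 of 114 were shared. Without TMM the median log2 fold change was -0.18, with 128 higher and 7 lower.

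The 6 interaction calls became 0 with DESeq2, 15 without TMM, 1 without the highest doublet scores, 10 at a mitochondrial limit of 5%, 0 at a threshold of 20 per 10000, 24 with the rule on thinned barcodes, 1 without lineage markers at 10 per 10000, 42 in libraries with 30 cells of each stage, and 0 to 68 with 1 library left out. The Krtdap interaction reversed to -0.13 at a threshold of 20 and to -1.79 without lineage markers at 10 per 10000, and that of Igfbp2 to 0.11 with thinned barcodes; the cause was not tested. The share difference of -6.44 points ranged over -8.33 to -4.55 with 1 library left out and was -2.44 without members with lineage markers at 10 per 10000. With such barcodes left out of the total too it turned to 2.72, and at 50 per 10000 it was -3.38; both were chosen after seeing the data. Among spinous cells the difference of 7.09 points ranged over 0.819 to 12.9, and was -7.28 in that setting, which left 1 member in wounded library 2. Across these settings, named and called genes kept call and direction in 566 wound effect values and lost the call in 118, with no reversal. Depth limits wounded library 2 most, where 0 UMIs allow up to 7.97 CPM in late cells.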

Other observations

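Haemoglobin was unevenly present in the late cells. Hba-a1, an alpha globin gene, had 30.05, 63.8 and 38.9 CPM in wounded and 77.6 and 66.9 CPM in un-wounded late cells, against 3.90, 0 and 0 CPM in wounded and 11.5 and 15.6 CPM in un-wounded earlier cells. In basal-rule cells it had 8.72, 15.4 and 1.54 CPM in wounded and 1.87 and 3.94 CPM in un-wounded libraries. The beta globin gene Hbb-bs had 0, 39.9 and 2.64 CPM in wounded and 0 and 4.22 CPM in un-wounded late cells.

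Wounded library 3 was low for several regulators in late cells and in the other classes of cells. Jund, an AP-1 subunit, had 1801, 1140 and 315 CPM in wounded and 1403 and 1005 CPM in un-wounded late cells. Klf2 had 69.0, 95.7 and 10.5 CPM against 61.2 and 64.3 CPM, and the splicing factor gene Srsf2 232, 276 and 60.6 CPM against 280 and 260 CPM. In wounded library 3, basal-rule cells had 312, 21.2 and 65.4 CPM of Jund, Klf2 and Srsf2, fibroblast-rule cells 501, 153 and 55.6 CPM, and myeloid-rule cells 162, 48.6 and 49.2 CPM, each below every other library in that class. Cebpb was low there in fibroblast-rule cells too, with 720, 683 and 55.8 CPM in wounded and 429 and 695 CPM in un-wounded libraries. These genes were picked after their values were seen.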
